A study of Mus musculus with 4 samples.

Results

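Among the bone marrow cells sorted as αLPs, 82 of the 8322 cells kept (29 of 800 in experiment 1 and 53 of 7522 in experiment 2) carried transcripts of the CD3 complex together with *Id2* and little or no *Il1rl1*, and these CD3 gene-expressing, T lineage-like cells are described here. αLPs are lymphoid progenitors that have turned away from the B cell fate and include the precursors of innate lymphoid cells (ILCs). The cells came from C57BL/6 (by the study's methods C57BL/6J) mice that were wild-type (WT) or lacked the GATA3-related tandem super-enhancers (G3SEKO), a pair of distal enhancer clusters near *Gata3*. The mice were unchallenged young adults of both sexes, and cells of several mice of each genotype were pooled. Cells were sorted as Lin−CD127+FLT3−LPAM-1+, marked with hashtag antibodies against MHC class I, pooled, and read out by TAS-Seq, which counts reads per gene and cell. In experiment 1, hashtags A0307, A0308 and A0309 marked WT cells and A0310, A0311 and A0312 marked G3SEKO cells. In experiment 2 the labels name both hashtags, A0302 and A0303, under WT and none under G3SEKO. A0303 was taken as G3SEKO here, so every G3SEKO value of experiment 2 rests on that assignment. By the labels and the study's methods, experiments 1 and 2 also used different cell sorters (the labels alone name the second), partly different bones and different depths, and these cannot be told apart.

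T cells recognise antigen through a receptor made of an α and a β chain or of a γ and a δ chain. Neither receptor reaches the surface without the CD3 proteins, which carry the signal into the cell. The constant region of the α chain is encoded by *Trac* and that of the δ chain by *Trdc*, while ILCs and their progenitors lack a receptor but can transcribe unrearranged β, γ and δ genes. NKT cells are αβ T cells that share receptors with NK cells, and the invariant type depends on the transcription factor encoded by *Zbtb16*. Because antibodies to CD3e, CD4, CD5, CD8 and NK1.1 (the product of *Klrb1c*) were part of the lineage gate, cells with these proteins on their surface should have been removed. RNA and not surface protein was measured here.

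Levels are given as L, the natural logarithm of 1 plus the reads per 10000 reads of the cell. A member had an L of at least 1 for at least 2 of the 3 genes *Cd3d*, *Cd3e* and *Cd3g*, at least 1 read of *Id2*, and an L of *Il1rl1* (the gene of the IL-33 receptor ST2) below 1. Cells below the study's lower limit on reads in each experiment, or with more than 10% mitochondrial reads, had been left out. The comparison populations were the other cells with an *Id2* read and *Il1rl1* below the limit (other ST2-low cells, 327 and 2914 in experiments 1 and 2) and the cells above the *Il1rl1* limit (ST2-high cells, 442 and 3931), which are mostly ILC2s and serve as background. The 82 members comprised 21 WT and 8 G3SEKO cells in experiment 1, and 16 WT and 37 G3SEKO cells in experiment 2. Members held a median of 339748 reads and 4595 genes in experiment 1 and of 37335 reads and 2076 genes in experiment 2. Their median mitochondrial share was 4.0% and 3.27%. The other ST2-low cells had medians of 480307 and 32693.5 reads. Of 7 cell barcodes found in both experiments, 2 belonged to members. Expression could not be checked for doublets by a caller, but of 99 cells that the authors named doublets from their hashtags in experiment 2, 1 met the rule, and the only such cell in experiment 1 did not.

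The values that chose the members were *Cd3d* (GRCm38, chromosome 9:44981786-44987339), *Cd3e* (9:44998740-45009627) and *Cd3g* (9:44969572-44980431), 3 neighbouring protein-coding genes. *Cd3d* had an L of at least 1 in 73 of the 82 members, *Cd3g* in 68 and *Cd3e* in 57. All 3 genes passed the limit in 11 of 29 members of experiment 1 and 23 of 53 of experiment 2. In reads summed over members, *Cd3d* stood at 674 and 1353 counts per 1000000 reads (CPM) in WT and G3SEKO members of experiment 1. In experiment 2 the values were 1033 and 1605 CPM. The other ST2-low cells, both genotypes combined, held 11.6 CPM in experiment 1 and 3.17 CPM in experiment 2. The limit lay in a thinly filled range. The second-highest *Cd3* gene had an L of 1.34, 1.38 and 1.39 in the 3 lowest members of experiment 1 and of 0.974, 0.901 and 0.801 in the 3 highest cells outside. In experiment 2 these values were 1.08, 1.10 and 1.11 inside and 0.861, 0.794 and 0.787 outside. Between 0.75 and 1.25 lay 0 members and 4 other cells in experiment 1, and 5 members and 4 other cells in experiment 2. No cell that passed the *Cd3* limits was ST2-high in either experiment.

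Members made up a larger share of the G3SEKO cells than of the WT cells in both experiments. In experiment 1 they were 21 of 737 WT cells (2.85%, exact 95% binomial interval 1.77 to 4.32%) and 8 of 63 G3SEKO cells (12.7%, 5.65 to 23.5%). In experiment 2 they were 16 of 6075 WT cells (0.263%, 0.151 to 0.427%) and 37 of 1447 G3SEKO cells (2.56%, 1.81 to 3.51%). The G3SEKO share was thus 4.46 and 9.71 times the WT share. G3SEKO cells included few ST2-high cells, 2 of the 63 in experiment 1 and 52 of the 1447 in experiment 2, which lowers the denominator. Over cells with an *Id2* read and low *Il1rl1* alone, the shares were 7.12% (4.46 to 10.7%) in WT and 13.1% (5.84 to 24.2%) in G3SEKO in experiment 1. In experiment 2 they were 0.910% (0.521 to 1.47%) and 3.06% (2.16 to 4.19%), and the ratios fell to 1.84 and 3.36. The intervals cover counting error only. Reads were not collapsed to molecules, cells of a genotype in an experiment are 1 sample, and with 2 experiments no test of the shares was made.

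The experiment 1 difference rested on a single hashtag. All 8 G3SEKO members carried A0312, where they were 8 of 31 cells (25.8%, 11.9 to 44.6%). There were 0 of 23 under A0310 and 0 of 9 under A0311, counts that allow shares of up to 13.0% and 33.3%. Without A0312, G3SEKO had 0 members of 32 cells, which allows a share of up to 9.38%, and the direction turned. The 3 WT hashtags were alike, with 7 of 275 (2.55%), 9 of 250 (3.60%) and 5 of 212 cells (2.36%). By the study's methods there were more mice than hashtags in experiment 1, so at least some hashtags marked several mice, and how the mice were divided among them is not given in the sources used here. In the plot of member shares, the interval of A0312 lies above those of the 3 WT hashtags and overlaps those of A0310 and A0311.

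**Figure D1:**
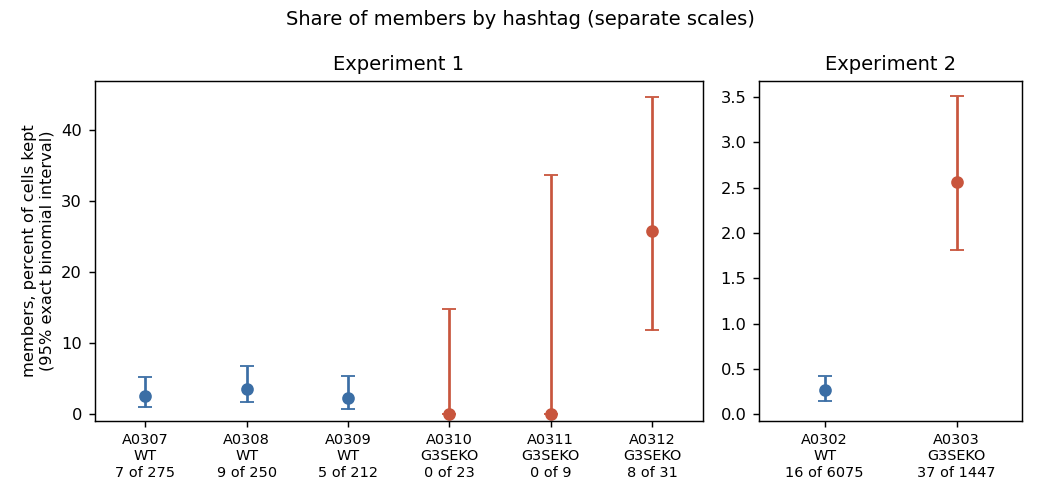
Share of cells that were members, in percent of the cells kept, for each hashtag of experiments 1 and 2 (points, with exact 95% binomial intervals, WT in blue and G3SEKO in red), with a separate vertical scale for each experiment. A0312 stood at 25.8%, the 3 WT hashtags of experiment 1 between 2.36% and 3.60%, and the experiment 2 hashtags at 0.263% (WT) and 2.56% (G3SEKO).

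The α and δ constant genes divided the members into largely separate sets, and the sets differed between the experiments. *Trac* (GRCm38, chromosome 14:54220521-54224206) lies downstream of *Trdc* (14:54142851-54148868) in the same locus. At an L of at least 1, 16 of the 82 members had *Trac* alone, 45 had *Trdc* alone, 6 had both and 15 had neither. In experiment 1, *Trac* passed the limit in 15 of 29 members (51.7%) and *Trdc* in 8 (27.6%). In experiment 2 the order was the opposite, with *Trac* in 7 of 53 (13.2%) and *Trdc* in 43 (81.1%, 68.0 to 90.6%). With each cell thinned to the read limit of experiment 2, *Trac* passed in 13 and *Trdc* in 8 of the 29, and in 5 and 38 of the 53. The order in experiment 2 stayed under each limit tried, but in experiment 1 *Trac* and *Trdc* passed in 6 members each at an L of at least 2. There the counts of *Trac* and *Trdc* were 17 and 16 of the 29 at 1 read or more, and 8 and 7 of the 21 members without A0312, the same order by a single cell. The limit marks a range of levels and not a type of cell.

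*Trac* was at the limit in a small share of the cells outside the members. *Trac* stood at 387 and 771 CPM in WT and G3SEKO members of experiment 1, and at 109 and 104 CPM in those of experiment 2. It reached an L of 1 in 8 of 21, 7 of 8, 1 of 16 and 6 of 37 members of these groups. The median L was 1.78 in G3SEKO members of experiment 1 and 0.00 in the other 3 groups, with highest values of 3.41, 3.74, 2.60 and 2.38. In the other ST2-low cells 2.45% and 1.34% of cells passed, and in ST2-high cells 0.226% and 0.280%. Of the 22 members with *Trac*, 19 also had a β constant gene (*Trbc1* or *Trbc2*) at the limit.

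*Trdc* was the more common constant gene among all 82 members. It stood at 419 and 190 CPM in WT and G3SEKO members of experiment 1, and at 1671 and 1313 CPM in those of experiment 2. It passed the limit in 7 of 21, 1 of 8, 14 of 16 and 29 of 37 members. The median L was 2.74 (lowest 0, highest 4.12) in WT and 2.18 (0 to 3.86) in G3SEKO members of experiment 2, and 0.07 and 0.00 in those of experiment 1. The other ST2-low cells passed in 6.12% and 3.33% and the ST2-high cells in 0.452% and 1.02%. A γ constant gene accompanied *Trdc* in 44 of the 51 members with *Trdc*.

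**Figure D2:**
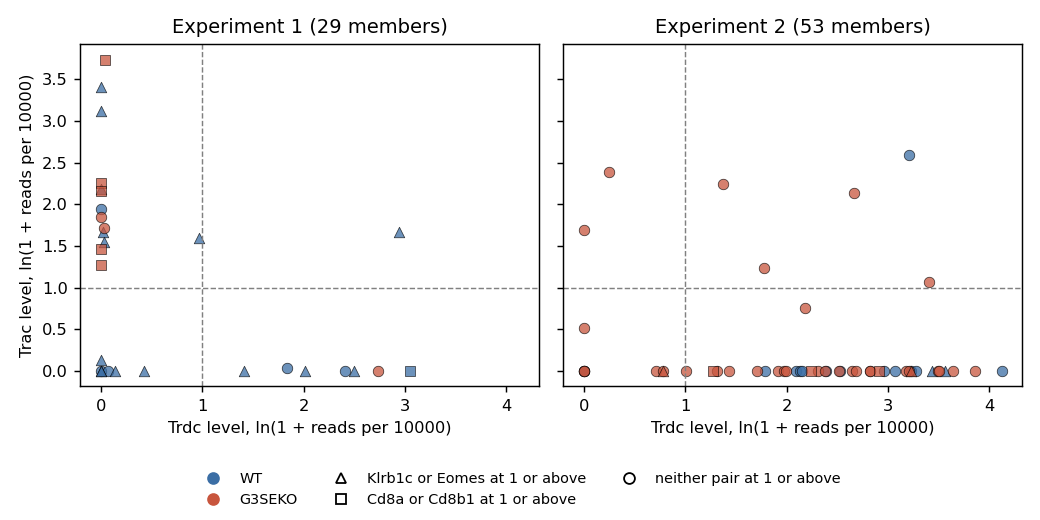
Level of *Trdc* (horizontal) and *Trac* (vertical) in each of the 82 members, as L, the natural logarithm of 1 plus reads per 10000, in experiments 1 and 2, coloured by genotype. Squares mark members with *Cd8a* or *Cd8b1* at an L of at least 1, triangles the others with *Klrb1c* or *Eomes* at that level, and dashed lines an L of 1; most members lie near an axis, 16 with *Trac* alone, 45 with *Trdc* alone and 6 with both above 1.

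The β constant genes, *Trgc1* and *Trgc4* were also common in the other ST2-low cells, whereas *Trgc2* was not. *Trbc1* was at the limit in 61 and *Trbc2* in 62 of the 82 members, but *Trbc1* also in 71.9% and 56.3% and *Trbc2* in 57.2% and 39.7% of the other ST2-low cells. *Trgc1* was at the limit in 28 members and *Trgc4* in 31, while 43.7% and 43.0% (*Trgc1*) and 56.9% and 49.0% (*Trgc4*) of the other ST2-low cells passed. *Trgc4* divided the members by experiment, with 2 of 29 in experiment 1 and 29 of 53 in experiment 2, and the same counts after thinning. *Trgc2* was at the limit in 32 members and in only 7.34% and 5.15% of the other ST2-low cells. *Trbc1* and *Trbc2*, and several of the *Trgc* genes, are near-identical in sequence, so the split of reads among them is uncertain.

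Variable segments were read in part of the members. In experiment 2, any *Trgv* segment had a read in 28 of 53 members (52.8%), 24 of which had *Trdc* at the limit, against 12.0% of the other ST2-low cells. *Trgv2* accounted for 21 of the 53 (39.6% against 6.90%). In experiment 1 any *Trgv* segment had a read in 8 of 29 members (27.6%), close to the 25.4% of the other ST2-low cells. *Trgv2* was read there in 7 of 29 (24.1% against 12.8%). Segments of the *Trav15* and dv6 family can join either the α or the δ constant region. In experiment 2 they had reads in 13 of 53 members (24.5%), 10 of them with *Trdc*, and in 0.172% of the other ST2-low cells. In experiment 1 the same family was read in 2 of 29 members (6.90%) and 0.917% of the other cells. Any *Trdv* segment had a read in 9 of 53 members of experiment 2 (17.0% against 4.91% of the other ST2-low cells) and in 1 of 29 of experiment 1 (3.45% against 7.65%). For *Trdv4* the counts were 0 of 29 and 0 of 53 members, which allows shares of up to 10.3% and 5.66%, so no difference from the other ST2-low cells (3.06% and 3.09%) was detectable. A *Trbv* segment was read in 7 of the 29 members of experiment 1 (24.1% against 8.56% of the other ST2-low cells), 6 of them with *Trac*. In experiment 2 it was read in 8 of 53 (15.1% against 2.09%), 5 with *Trdc* and 3 with *Trac*.

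Of the NK cell genes, *Klrb1c* and *Eomes* were found mainly in WT members of experiment 1, whereas *Klrd1* and *Tbx21* were also found in G3SEKO members. *Klrb1c* (GRCm38, chromosome 6:128778485-128789215), which encodes NK1.1, was at the limit in 11 of 21 WT members of experiment 1, 0 of 8 G3SEKO members, 0 of 16 WT and 1 of 37 G3SEKO members of experiment 2. The sums gave 481, 1.02, 0 and 10.9 CPM. *Eomes* (9:118478212-118486132), a T-box transcription factor of NK cells and memory-type CD8 T cells, had 278, 48.4, 81.7 and 11.5 CPM and passed in 11, 0, 2 and 1 members. *Klrd1*, which encodes the NK receptor chain CD94, was at the limit in 12 of 21, 6 of 8, 8 of 16 and 10 of 37 members, against 8.56% and 2.06% of the other ST2-low cells. *Tbx21*, the T-box factor T-bet, was at the limit in 4, 3, 1 and 1 members of these groups. The *Klrb1c*-positive cells were spread over the 3 WT hashtags, with 4 of 7, 3 of 9 and 4 of 5 members. At the thinned depth, *Klrb1c* passed in 7 and *Eomes* in 6 of the 21. Both genes were rare in ST2-high cells of experiment 1 (0.226% each) and more common in the other ST2-low cells (2.75% for *Klrb1c* and 7.03% for *Eomes*).

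Of the 19 members with *Klrb1c* or *Eomes*, 15 were WT cells of experiment 1. Among the 19, 7 had *Trac*, 7 had *Trdc*, with either gene counted whether or not the other was present, and 6 had neither. *Klrb1c* and *Trac* occurred together in 6 members, all WT cells of experiment 1. The inhibitory Ly49 receptor gene *Klra7* was at the limit in 9 of the 21 WT members of experiment 1 and in no other member, and the chemokine gene *Xcl1* in 11 of the 21 and in 1 other member. *Klra7* belongs to a family of close paralogs, so its reads may be shared with related genes. *Gzma*, which encodes a granule protease of killer cells, reached the limit in no member. The cytotoxic granule gene *Nkg7* was spread more evenly, over 15 of 21, 6 of 8, 9 of 16 and 18 of 37 members, against 38.5% and 19.9% of the other ST2-low cells.

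*Zbtb16* (GRCm38, chromosome 9:48654297-48836222) was scarce in the members. It was at the limit in 1 of 21, 0 of 8, 0 of 16 and 3 of 37 members, and in 38.8% and 21.5% of the other ST2-low cells. No member had *Zbtb16* and *Trac* together (0 of 82, which allows a share of up to 3.66%), and 4 had it with *Trdc*. The segments that make the invariant NKT receptor were not analysed here. Over the 20 and 19 measured genes of the NKT-like list (NK receptors, *Il2rb*, *Tbx21*, *Ccl5*, *Zbtb16* and others), 17 of 20 genes above 10 CPM were higher in WT members of experiment 1 than in the other ST2-low cells, with a median log2 ratio of 2.71 beside −0.46 over all 10271 genes. In G3SEKO members of experiment 1 it was 10 of 14 (median 1.41 beside −1.23), and in WT and G3SEKO members of experiment 2 it was 8 of 11 (2.90 beside −0.78) and 8 of 13 (0.61 beside −0.33). ST2-low non-members with *Eomes* or *Klrd1* at the limit, which are themselves on this list, carried it too. The list summed to 12329 (WT) and 4419 CPM (G3SEKO) in members of experiment 1, against 6509 and 5486 CPM in those non-members. In experiment 2 the sums were 3433 and 1612 CPM against 2712 and 4225 CPM. The NK cell or ILC1 list stood lower in members, at 2621, 2011, 1070 and 947 CPM against 3013, 2536, 1337 and 2653 CPM. Since members against the rest is the contrast of the rule, the ratios and sums are descriptions and carry no test.

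CD8 genes marked the G3SEKO members of experiment 1. *Cd8b1* (GRCm38, chromosome 6:71322788-71337494) was at the limit in 1 of 21, 5 of 8, 0 of 16 and 3 of 37 members. *Cd8a* (6:71373427-71379173) was at the limit in 4 of the 8 and in no other member. *Cd6*, a co-receptor of mature T cells, was at the limit in 0 of 21, 5 of 8, 2 of 16 and 6 of 37. All 5 of the G3SEKO members of experiment 1 with a CD8 gene also had *Trac*, whereas none of the 4 others with a CD8 gene did. *Cd4* reached the limit in 1 member, a G3SEKO cell of experiment 1 without CD8 genes. *Cd5*, the gene of another gated protein, was at the limit in 15 of the 82 members.

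Within the *Trac*-alone set of experiment 1, the 7 WT and the 7 G3SEKO members differed in part of these genes. *Klrb1c* was at the limit in 5 and 0, *Eomes* in 6 and 0, and *Klra7* in 4 and 0. *Cd8b1* was at the limit in 0 and 5, *Cd8a* in 0 and 4, and *Cd6* in 0 and 5. *Klrd1* was at the limit in 6 and 5 (661 and 704 CPM), *Tbx21* in 3 and 2, *Nkg7* in 7 and 6 and *Trbc2* in 6 and 6, so these genes were found in both. The 7 G3SEKO cells all came from A0312, so the genotype and that hashtag cannot be told apart here. Not all NK receptor genes followed this division. No member with *Klrb1c* or *Eomes* at the limit had a CD8 gene there (0 of 82, which allows a share of up to 3.66%). This count rests on the limit, since a WT member of experiment 1 had *Eomes* at 1.01 and *Cd8b1* at 0.957, and a G3SEKO member had *Eomes* at 0.966 and *Cd8b1* at 2.32. By contrast, *Klrd1* and a CD8 gene were at the limit together in 4 of the 8 G3SEKO members of experiment 1.

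**Figure D3:**
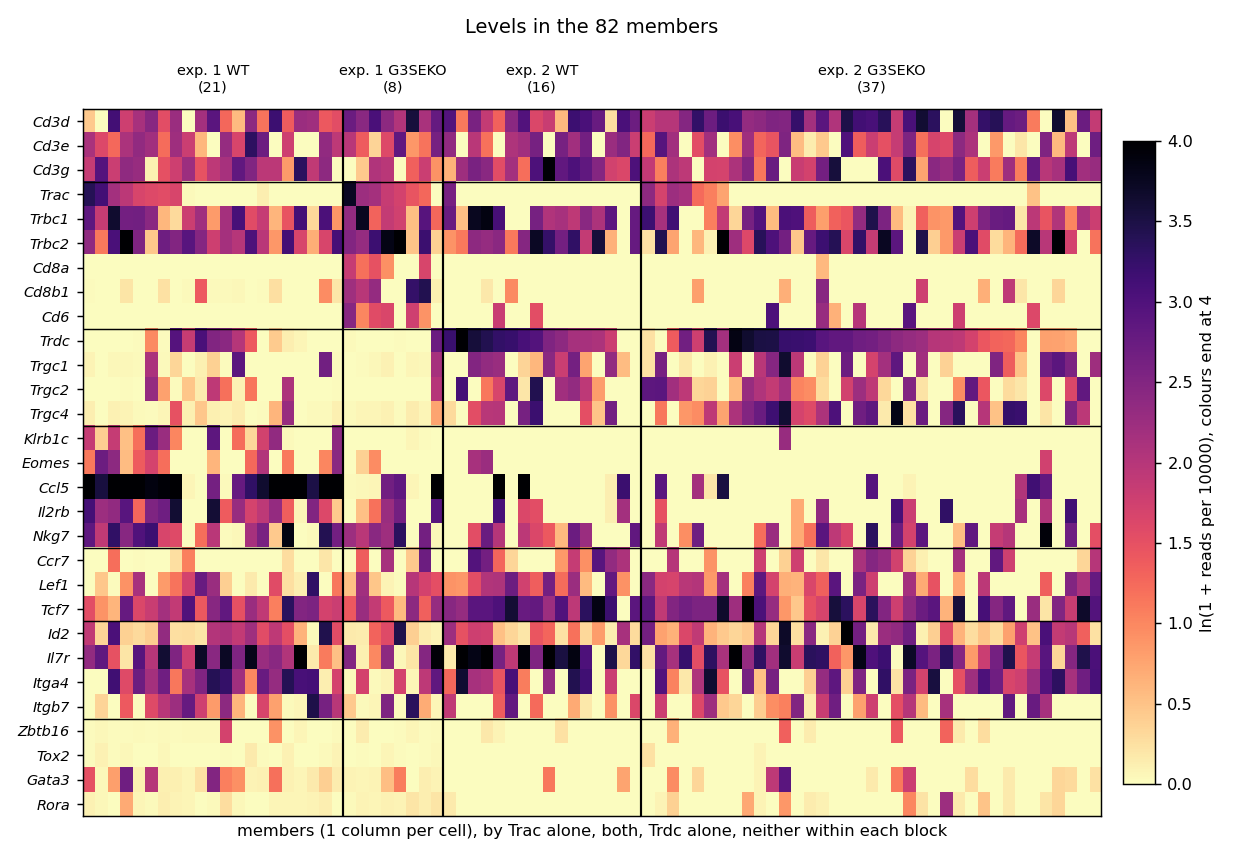
Level of 29 genes (rows) in each of the 82 members (columns), grouped by experiment, genotype and constant gene, as L, the natural logarithm of 1 plus reads per 10000, with the colour scale ending at 4. *Klrb1c* and *Eomes* fill WT columns of experiment 1 (11 of 21 each at an L of at least 1), CD8 genes fill G3SEKO columns of experiment 1, and *Trdc* fills most columns of experiment 2 (43 of 53).

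The *Trdc*-alone members of experiment 2 were the largest set, with 38 cells, 13 WT and 25 G3SEKO. Among them *Trgc4* was at the limit in 25, *Trbc2* in 31, *Il7r* in 34, *Ccr7* in 15, *Nkg7* in 21 and *Klrb1c* in 1. Several genes known from IL-17-producing γδ T cells were each found in few members. *Sox13* was at the limit in 1 of the 82 members, *Blk* in 2, *Il23r* in 1, *Cd163l1* (also named *Scart1*) in 3 and *5830411N06Rik* (also named *Scart2*) in 3, and *Tmem176b* in 0. All but *Tmem176b* were also rare in the other ST2-low cells, at the limit in 0 and 0.0686% (*Sox13*), 1.22% and 0.240% (*Blk*), 1.22% and 1.78% (*Il23r*) and 0.306% and 0.309% (*Cd163l1*), and in 0 of 327 and 11 of 2914 cells (*5830411N06Rik*). The log2 ratio of *Cd163l1* was 4.49 and 3.67 in WT and G3SEKO of experiment 2, and that of *Sox13* was 6.35 in WT of experiment 1, where 1 member carried it at the limit. *Tmem176b* was at the limit in 34.6% and 42.6% of them. The γδ list therefore had no common direction, with 6 of 10 genes above 10 CPM higher in WT members of experiment 1 than in the other ST2-low cells, 1 of 8 in G3SEKO members, and 4 of 8 and 3 of 8 in WT and G3SEKO members of experiment 2. Its median log2 ratios were 2.16, −5.51, 1.73 and −0.69.

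Genes of T cell receptor signalling were higher in the members than in the other ST2-low cells in each of the 4 sums. Of the 18 or 19 listed genes above 10 CPM, 14 of 18, 16 of 18, 16 of 19 and 17 of 19 were higher, in the order WT and G3SEKO of experiment 1 and WT and G3SEKO of experiment 2. The medians of the log2 ratios were 1.18, 2.11, 1.76 and 2.14 beside −0.46, −1.23, −0.78 and −0.33 over all genes above that level. *Cd2*, an adhesion receptor of T and NK cells, was at the limit in 41 of the 82 members and in 2.75% and 0.789% of the other ST2-low cells. *Lck*, the kinase that starts receptor signalling, was at the limit in 52 of 82 against 26.6% and 17.6%. *Thy1* was at the limit in 62 of 82 against 49.5% and 41.2%. *Themis*, which acts in thymic selection, was at the limit in 12 members, all of experiment 2.

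The members also carried transcripts of naive and circulating lymphocytes. The chemokine receptor gene *Ccr7* was at the limit in 5 of 29 and 18 of 53 members, against 6.12% and 5.49% of the other ST2-low cells. *Klf2*, a transcription factor of lymphocyte egress, was at the limit in 47 of 82 members against 11.3% and 11.5% of the other ST2-low cells, and its target *S1pr1* in 31 of 82 against 4.28% and 1.96%. *Lef1* was at the limit in 43 members, against 19.0% and 11.7%. *Tcf7* was at the limit in 72, against 59.0% and 39.6%, but its summed level in experiment 1 was lower in the members, with log2 ratios of −0.28 in WT and −0.63 in G3SEKO. That of *Ccr7* was −0.67 in WT members of experiment 1. Of the list of 11 genes, 8 of 10, 8 of 11, 10 of 11 and 9 of 11 were higher than in the other ST2-low cells (median log2 ratios 0.93, 2.50, 3.75 and 2.13). *Igfbp4* was the exception by level, at the limit in 6 members and in 37.3% and 20.5% of the other ST2-low cells.

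The gate itself was partly reflected in RNA. *Il7r*, the gene of CD127, was at the limit in 67 of the 82 members, against 89.3% of the other ST2-low cells in each experiment. The LPAM-1 chains are encoded by *Itga4*, at the limit in 58 members, and *Itgb7*, at the limit in 32 (39.0%), against 41.3% and 41.4% of the other ST2-low cells for *Itgb7*. *Flt3*, whose product was gated out, reached the limit in no member.

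Genes of ILC2s were low in the members, and those of ILC progenitors were mixed. *Id2* (GRCm38, chromosome 12:25093799-25097140) was required at 1 read only. It stood at 530, 370, 224 and 558 CPM in the 4 sums, against 2696 and 2139 CPM in the other ST2-low cells, and reached an L of 1 in 40 of the 82 members. *Rora*, an ILC2 transcription factor, was at the limit in 2 of the 82 members and in 74.3% and 61.0% of the other ST2-low cells. *Pdcd1* was at the limit in 3 members against 26.9% and 17.9%, and *Tox2* in none. *Id3*, also on the ILC progenitor list, went the other way and was at the limit in 11 members. Its log2 ratios were 2.99 and 2.61 in WT and G3SEKO of experiment 1 and 4.36 and 6.95 in those of experiment 2. Of the ILC progenitor list, 3 of 13, 4 of 13, 3 of 12 and 4 of 13 genes were higher in the members than in the other ST2-low cells. The median log2 ratios of this list were −0.70, −1.95, −0.65 and −1.99 beside −0.46, −1.23, −0.78 and −0.33 over all genes, so in WT members the list lay near the background. Of the ILC2 list it was 0 of 11, 1 of 8, 0 of 12 and 2 of 8, with medians of −4.25, −5.09, −5.41 and −2.91 beside the same values.

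*Gata3* (GRCm38, chromosome 2:9857078-9890034), the gene near the deleted enhancers, is also a regulator of T cells. WT members held 212 and G3SEKO members 31.3 CPM of it in experiment 1. In experiment 2 the order was reversed, with 11.2 and 83.1 CPM, and 6 of 21, 1 of 8, 1 of 16 and 4 of 37 members were at the limit. The direction of the genotype difference was thus opposite in the 2 experiments. Among the other ST2-low cells, *Gata3* was lower in G3SEKO in both, with 915 (WT) and 471 CPM (G3SEKO) in the first experiment and 838 and 401 CPM in the second. In edgeR's quasi-likelihood test within the members (Benjamini-Hochberg adjusted), the log2 difference for *Gata3* was 0.11 (SE 1.94, adjusted p = 1), an error that leaves differences of several log2 units in either direction undetectable.

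**Figure D4:**
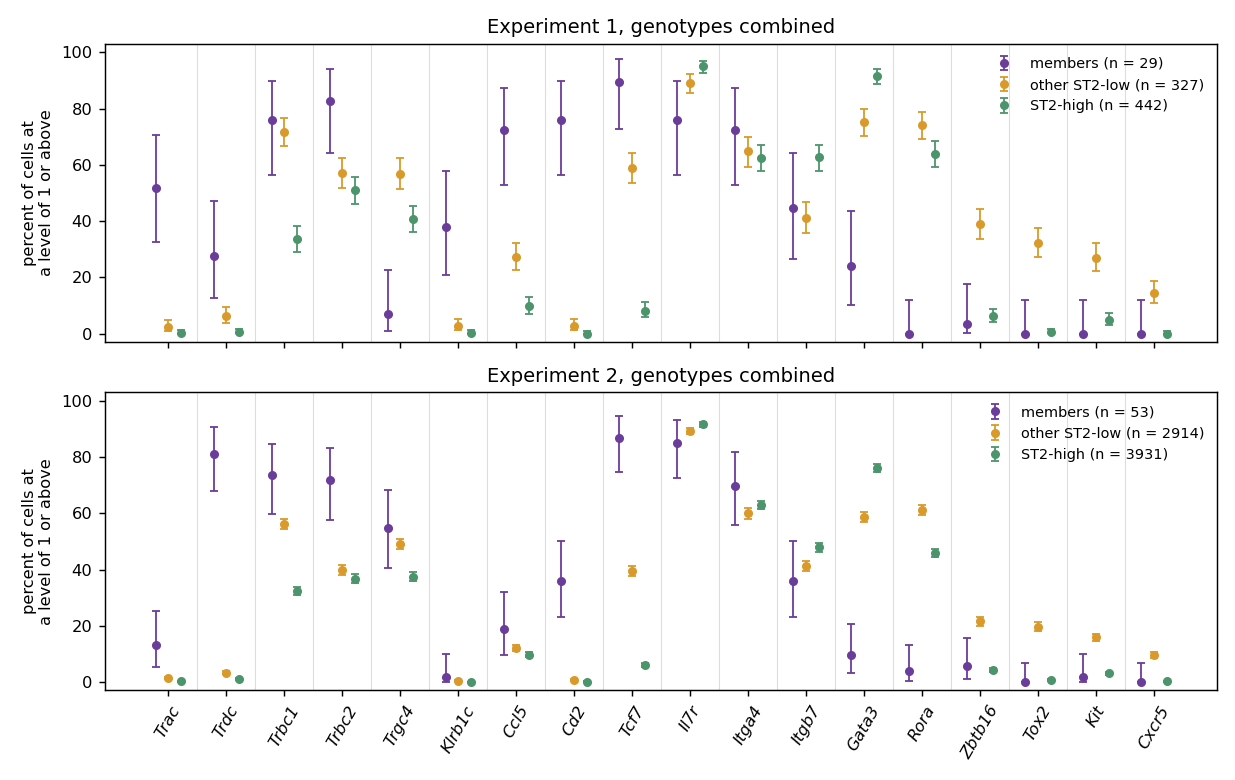
Percent of cells with an L of at least 1 for marker genes in members, other ST2-low cells and ST2-high cells of experiments 1 and 2, with exact 95% binomial intervals. *Trdc* was at 27.6% and 81.1% of members and *Rora* at 0 of 29 and 2 of 53, while *Rora* was at 74.3% and 61.0% of the other ST2-low cells.

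Genes of early T cell development were mixed. The pre-T cell receptor gene *Ptcra*, the recombinase gene *Rag1* and the Notch target *Hes1* reached the limit in 0 of 82 members, *Rag2* in 1 and *Kit* in 1. *Dtx1*, on the same list, was at the limit in 5 members and higher than in the other ST2-low cells throughout. Its log2 ratios were 2.75 and 4.92 in WT and G3SEKO of experiment 1 and 4.37 and 2.72 in those of experiment 2. *Dntt*, which adds bases at receptor joints, was at the limit in 5 members, 4 of them in experiment 2. *Bcl11b*, which mature T cells also use, was at the limit in 36 members, against 39.8% and 29.9% of the other ST2-low cells, with log2 ratios of −1.68 and 0.07 in WT and G3SEKO of experiment 1 and 0.19 and 0.43 in those of experiment 2. The cycling genes *Mki67* and *Top2a* were at the limit in 1 member each. Of the early T cell list, 3 of 13, 3 of 15, 5 of 14 and 7 of 13 genes above 10 CPM were higher in the members than in the other ST2-low cells. The median log2 ratios were −1.29, −3.91, −2.49 and 0.37 beside −0.46, −1.23, −0.78 and −0.33 over all genes, so the list lay above the background in G3SEKO members of experiment 2 and below it in the other 3 sums.

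Markers of further lineages differed by list. *Cd79a*, *Cd14*, *Csf1r*, *Lyz2*, *Siglech* and *Cpa3* reached the limit in no member. The erythroid list summed to between 0 and 5.16 CPM in the 4 sums, the mast cell or basophil list to between 0 and 2.29 CPM, and the LTi cell or ILC3 list to between 3.31 and 125 CPM. The dendritic cell list summed to 34.4, 1.78, 189 and 121 CPM in the 4 sums, against 124 and 155 CPM in the other ST2-low cells of experiments 1 and 2. In WT members of experiment 2 both of its genes above 10 CPM were higher than in the other ST2-low cells (median log2 ratio 0.51), and in the other 3 sums 0 of 2 were. *Bst2*, an interferon-induced gene of many cell types, supplied most of the experiment 2 sums, with 146 and 121 CPM. The B lineage list summed to between 491 and 700 CPM, nearly all from *Ighm*, which was at the limit in 45 of the 82 members and in 43.1% and 25.7% of the other ST2-low cells. The myeloid list summed to 750 CPM in WT members of experiment 1 and to between 14.9 and 40.7 CPM in the other 3 sums. *Fcer1g* supplied most of the former, with 732 CPM and 14 of 21 members at the limit, against 26.5, 3.20 and 12.6 CPM elsewhere. It encodes an adaptor that NK cell receptors also use, and its part in the differences between the sums was not tested.

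Ranked by their ratio over the other ST2-low cells in WT cells of both experiments, the leading 10 genes above 50 CPM, of 2186 past that limit, included the 3 *Cd3* genes and *Cd2*. *5830411N06Rik*, a scavenger receptor gene of γδ T cells, was ranked highest, with 279 and 89.7 CPM in WT members against 0.0647 and 0.291 CPM, but its reads came from 1 member in experiment 1 and 3 in experiment 2. *Nsg2* had 265 and 332 CPM in WT members and 237 and 205 CPM in G3SEKO members against at most 5.45 CPM in the other ST2-low cells, and was at the limit in 10 of 29 and 18 of 53 members. *Sidt1* had 169 and 282 CPM in WT members against 4.16 and 2.12 CPM. *Hopx*, a homeodomain cofactor of effector lymphocytes, had 388 and 75.3 CPM against 6.78 and 1.77 CPM, and was at the limit in 12 of 29 and 3 of 53. *Tnfsf8* (the CD30 ligand) and *Ifngas1* completed these 10. *Ifngas1* is antisense to the interferon γ gene, and the strand setting of the counting is not given in the sources used here. The lowest 10 of 3535 genes were led by *Elane* (0.245 and 0 CPM against 122 and 60.8 CPM) and *Cxcr5*, with *Napsa*, *1700113H08Rik*, *Kit*, *H2-Eb1*, *Cks1b*, *H2-Aa*, *Eif4e3* and *Emid1*. *Cxcr5*, known from LTi cells, had 0.245 and 0 CPM in WT members against 110 and 66.9 CPM.

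G3SEKO and WT members were compared gene by gene, since genotype was not part of the rule. Reads were summed over the 21, 8, 16 and 37 members of each genotype and experiment, giving 8177405, 3926865, 624320 and 1745074 reads, and edgeR's quasi-likelihood test with the experiment as a block was applied to 9361 genes. Benjamini-Hochberg adjusted p values were below 0.05 for 4 genes (0.0427% of those tested), 1 higher (0.0107%) and 3 lower (0.032%) in G3SEKO. At an unadjusted p below 0.05 there were 284 genes. With this block, the test sets the genotype difference against its variation between only 2 experiments. In each of them a sum holds pooled mice and few cells. In simulated counts of the same design it found 0% of genes changed 4-fold, 24% of those changed 16-fold and 58% of those changed 64-fold, so most differences were not detectable. Without the experiment as a block 0 genes passed (0%, with 296 at an unadjusted p below 0.05), as with each cell given equal weight (0%, with 216). DESeq2 called 131 of 18872 genes (0.694%), 84 higher (0.445%) and 47 lower (0.249%), and 3 of the 4 genes were among them. It gave 7684 of the 18872 genes no adjusted p, so its shares over the genes that could be called are higher. With no filter on low counts edgeR called 6 genes (0.0318%), and with thinned cells 2 (0.0702%).

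*Ccl5*, a chemokine gene of memory and effector lymphocytes, was lower in G3SEKO members. In experiment 1, WT members held 6444 and G3SEKO members 1439 CPM, and in experiment 2 they held 1565 and 278 CPM (log2 difference −2.19, SE 0.36, Benjamini-Hochberg adjusted p in edgeR's quasi-likelihood test = 1.68e-05). In experiment 1 it was at the limit in 18 of 21 WT and 3 of 8 G3SEKO members, and a single *Trdc*-positive cell held 80.1% of the G3SEKO reads. In experiment 2 the share of members at the limit was alike, 3 of 16 (18.8%) and 7 of 37 (18.9%), and the difference lay in the level of those few cells. Leaving out the member with most reads in each sum gave 6109 and 330 CPM, and 776 and 188 CPM. DESeq2 did not call *Ccl5* (adjusted p = 0.125).

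*Cd8b1*, the CD8β chain, was higher in G3SEKO members. WT members had 21.5 CPM of it and G3SEKO members 778 CPM in experiment 1, and 8.01 and 100.9 CPM in experiment 2 (log2 difference 4.66, SE 0.89, Benjamini-Hochberg adjusted p in edgeR's quasi-likelihood test = 7.28e-04). In experiment 1 the lowest, median and highest L were 0, 0.03 and 1.41 in WT and 0, 2.09 and 3.43 in G3SEKO, so the groups overlapped. In experiment 2, 3 of 37 G3SEKO members reached the limit, and 1 of them held 53.4% of the reads. *Cd8a* went the same way but did not pass, with 0 CPM in both WT sums and 226 and 4.01 CPM in G3SEKO (Benjamini-Hochberg adjusted p in edgeR's quasi-likelihood test = 0.257). All G3SEKO reads of experiment 1 came from A0312.

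*5830411N06Rik* and *Ly6c1* were lower in G3SEKO members, each from few cells. *5830411N06Rik* had no read in the G3SEKO members of either experiment. The WT level was 365 times that of 3 reads in the G3SEKO sum in experiment 1 and 52.2 times in experiment 2 (Benjamini-Hochberg adjusted p in edgeR's quasi-likelihood test = 1.50e-03). These values count reads and not cells, so they set no lower bound on the difference between members. With thinned cells the gene was not called (log2 difference −7.18, Benjamini-Hochberg adjusted p in edgeR's quasi-likelihood test = 0.999). A single WT cell held all the reads of experiment 1 and 3 WT cells those of experiment 2. *Ly6c1*, a surface antigen of memory T cells and monocytes, stood at 195 and 8.40 CPM in WT and G3SEKO of experiment 1 and at 945 and 63.6 CPM in those of experiment 2 (log2 difference −4.07, SE 0.82, Benjamini-Hochberg adjusted p in edgeR's quasi-likelihood test = 1.50e-03). The WT cell with most *Ly6c1* reads held 78.6% and 84.2% of them.

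The called genes were also compared among members with the same constant gene. Among *Trac*-alone members of experiment 1, *Ccl5* was at 7725 (WT) and 330 CPM (G3SEKO) and *Cd8b1* at 10.3 and 895 CPM. Among *Trdc*-alone members of experiment 2, *Ccl5* stood at 1780 and 154 CPM and *Cd8b1* at 9.74 and 141 CPM. These sums rested on few cells, with *Ccl5* at the limit in 2 of 13 WT and 3 of 25 G3SEKO members. *Cd8b1* was at the limit there in 0 and 3. *Ly6c1* stood at 181 and 90.7 CPM in the *Trdc*-alone members. In the *Trac*-alone members it stood at 1.99 and 7.04 CPM, where its direction was the opposite. The part of the set mix, of A0312 and of the cells with most reads in these differences was not tested further.

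**Figure D5:**
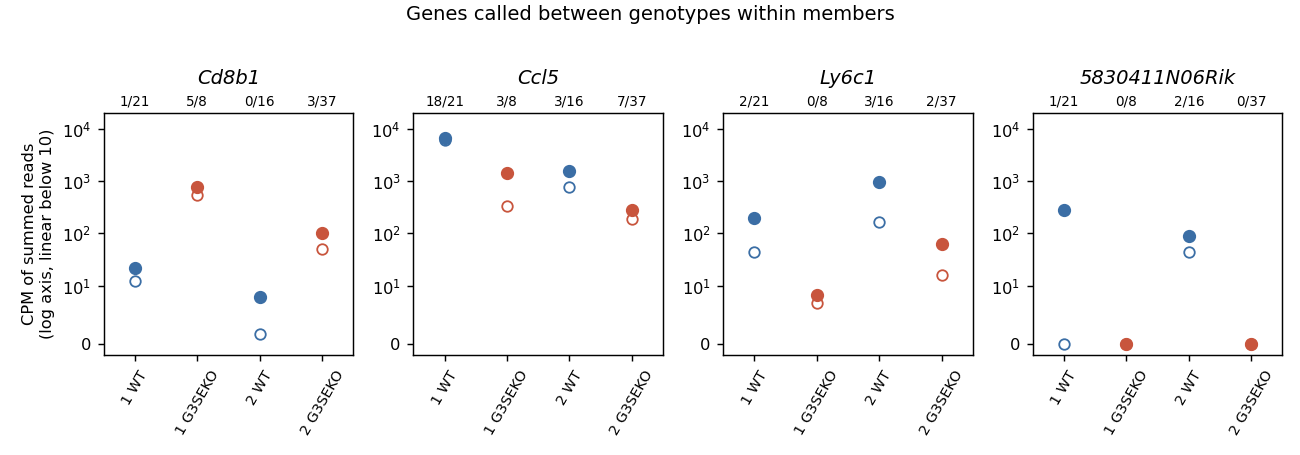
CPM of the 4 called genes in reads summed over members, by genotype and experiment (filled points), and the same without the member with most reads of the gene (open points), on a log axis that is linear below 10 CPM. The numbers above give the members at an L of at least 1; *Ccl5* fell from 6444 (WT) to 1439 CPM (G3SEKO) in experiment 1 and from 1565 to 278 CPM in experiment 2.

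Of all genes tested, 0.0427% were called. By list, the genotype test called *Cd8b1* among the 8 tested αβ T cell genes, *5830411N06Rik* among the 8 tested γδ genes and *Ccl5* among the 13 tested NKT-like genes. No gene was called in the lists of T cell signalling, constant genes, early T cell, naive or circulating T cell, ILC progenitor or ILC2 genes. The αβ list lay above 0 in 7 of 8 genes, with a median log2 difference of 1.25 beside 0.08 over all 9361 genes. The γδ list lay above 0 in 1 of 8 (median −0.49), the NKT-like list in 4 of 13 (median −0.71), the NK cell or ILC1 list in 3 of 7 (median −0.71) and the signalling list in 13 of 19 (median 0.57). *Trac* and *Trdc* did not pass in the same test (edgeR, quasi-likelihood, Benjamini-Hochberg), with log2 differences of 0.61 (SE 0.64, adjusted p = 1) and −0.61 (SE 0.48, adjusted p = 1).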

How the data were processed

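Per the labels and the study's methods, the authors removed adapters, aligned reads with Bowtie2 to GRCm38 and counted them. The authors deposited these counts per gene and cell unnormalised, each cell named by its hashtag call. Reads were not collapsed by molecular identifiers. The strand setting and the treatment of reads with several matches are not given in the sources used here. The deposited tables listed 1033 and 7630 cells and 24641 and 24838 genes, and every row named a gene. Cells with 1 hashtag call, past the study's read limits and with at most 10% mitochondrial reads were kept (800 and 7522). Doublets were left out by hashtag call only. Hashtag counts per cell, also deposited, were used for 1 alternative. Ribosomal protein genes and predicted genes (Gm symbols), which the study set aside, stayed in all fits and were not named.

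The members, the gene lists and the tests were chosen with earlier results of these data known. The text names the genes of the rule and of the marker lists, the 10 genes with the highest and the lowest ratio of members over other ST2-low cells in both experiments, and the genes past the threshold of the genotype test. List counts include members that are not reported here by name. Ratios added 2 reads to each sum, CPM used all reads of a sum, and shares have exact (Clopper-Pearson) 95% intervals. Floors of 3 reads or cells and intervals cover counting error only. Coordinates are those of GRCm38.

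The genotype test used edgeR 4.0.16 (quasi-likelihood, TMM, filterByExpr) in R 4.3.3 on 4 sums, with the experiment as a block because both genotypes were combined in each library. Over 9361 genes, the differences between experiments correlated between WT and G3SEKO with r = 0.06. The test was tried on simulated data. Alternatives were DESeq2 1.42.0, no filter, no block, thinning to the read limit of experiment 2 and equal weight per cell. Tables were read with Python 3.11.15.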

Additional observations from a re-analysis of the deposited data

Results flagged for a closer look

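In experiment 2, 83 cells passed the *Cd3* and *Il1rl1* limits but had no *Id2* read and so lay outside the described cells. They were singled out because the same *Cd3* signal appears in cells outside the members. They were counted among the cells kept and, as an alternative, among the members without the limit on *Id2*. There were 27 among 6075 WT cells (0.444%) and 56 among 1447 G3SEKO cells (3.87%), and 1 such cell in experiment 1. Of the 83, 4 had *Trac* alone, 49 *Trdc* alone, 9 both and 21 neither, at a median of 22371 reads against 37335 in the members. *Il7r* was at an L of at least 1 in 64 and *Ccl5* in 20 of the 83, and *Klrb1c* and *Eomes* in none. Their lower depth moves with the lack of an *Id2* read, and its part was not tested.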

How the results depend on the processing

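The number of members, 82, became 40 with *Id2* at an L of at least 1, 34 with all 3 *Cd3* genes, 40 with the *Cd3* limit at 2, 48 without any *Il1rl1* read, 47 with cells thinned to the read limit of experiment 2 and 166 without the limit on *Id2*, the last chosen after seeing the data. It stayed within 1.5 times (73 to 99) under the other settings. The G3SEKO share over the WT share kept its direction in experiment 2 (6.53 to 10.1). In experiment 1 it ranged from 2.60 to 5.85 except without hashtag A0312, also chosen after seeing the data, where it was 0. The share of members with *Trac* in experiment 1 was 20.7% at an L of at least 2, the same as with *Trdc*, and without A0312 these shares were 38.1% and 33.3%. The share with *Trdc* was 55.2% in experiment 1 at 1 read (*Trac* 58.6%) and 60.4% in experiment 2 at an L of at least 2. The genotype test called 131 genes with DESeq2 (84 higher and 47 lower, 47 of them with a genotype at 0), 0 with no replicate block, 2 when thinned, 0 with equal weight per cell and 6 with no filter. Thinning moved the median of all genes by −0.13. The experiment is the pairing here, with only 2 pairs. Among the called genes, *Ly6c1* was at 1.57 on the log2 scale in *Trac*-alone members of experiment 1. With each experiment alone, *Ccl5* was at −2.16 and −2.49, *Cd8b1* at 5.16 and 3.4 and *Ly6c1* at −4.48 and −3.86, as values with no test. The mean list ratios kept their sign under the alternatives run, but the LTi list gave no value when thinned because a sum had no read. The causes were not tested. Depth limits experiment 2 most, where 3 reads reach an L of 1 in 4 of 53 members.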

Other observations

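Among genes outside the T cell lists, *Ccr9*, a homing receptor gene for thymus and gut, was at an L of at least 1 in 19 of the 82 members. *Ets1* was at the limit in 64, *Runx3* in 24 and *Ly6a* in 20 members. These are values with no comparison attached.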
